A study of Mus musculus with 6 samples.

Results

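The genes described here are 34 heat shock proteins and chaperones, read in the inguinal white adipose tissue of mice without the insulin-like growth factor 1 receptor (Igf1r) in adipocytes and of littermate controls. They were taken by symbol from a fixed list. All 34 were among the 14861 genes of the table, and all 34 passed the filter on low values that 12993 genes passed. They comprise 5 small heat shock proteins and 29 other chaperones, and the comparison made throughout is of the former with the latter.

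Chaperones bind unfolded or partly folded proteins and keep them from aggregating, fold them, or hand them on for degradation. Small heat shock proteins hold unfolding clients without using ATP, and several of them are abundant in skeletal and heart muscle, where they guard the contractile apparatus. Hsp70 and Hsp90 use ATP and are steered by J-domain proteins and other cochaperones, and the chaperonins fold clients inside a closed ring. Heat shock factor 1 (Hsf1) raises the inducible members under proteotoxic stress by binding heat shock elements, which are inverted repeats of the bases GAA.

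A floxed Igf1r line (B6;129-Igf1rtm2Arge/J) was bred to a Cre line in which the adiponectin promoter drives Cre recombinase in adipocytes. The Cre line is B6; FVB-Tg (Adipoq-Cre)1Evdr/J. The offspring with Cre form the AdIGF1RKO group and the floxed littermates the Flox group, so both groups carry the floxed allele. Each group had 3 libraries of polyadenylated RNA, numbered 1 to 3. All mice had eaten a chow with 10% of its energy as fat for 24 weeks and had fasted overnight. The labels used here state neither sex nor age at the start. The tissue was taken whole, so vessels, immune cells and any adjoining muscle, which do not use the adiponectin promoter, contribute RNA. No label says that libraries of a group came from separate mice beyond calling them replicates, and p-values measure the spread between these libraries.

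Between 60617147 and 70695527 reads were recovered per library. They were scaled by median-ratio size factors to counts per 1000000 reads of a library of typical size, called scaled CPM, in which 1 read is worth 0.013 to 0.0207. Igf1r itself was read at 6.44, 6.47 and 5.86 scaled CPM in Flox 1 to 3 and at 6.11, 5.27 and 4.85 in AdIGF1RKO 1 to 3. Its log2 difference was -0.18 (SE 0.12, limma adjusted p = 0.998), and the groups overlapped. A count over the whole gene includes exons that Cre does not remove and cells without Cre, so it is a weak check of the deletion. All 10 adipocyte markers were present, with summed levels between 39676 and 52188 scaled CPM. Of 22 skeletal muscle markers 20 were in the table and none of these was at 0. They took 13.6% of the reads of Flox 3 and 4.92% of AdIGF1RKO 3, against 0.0565% to 0.949% in the other 4 libraries. From most to least muscle RNA the libraries stood in the order Flox 3, AdIGF1RKO 3, Flox 1, AdIGF1RKO 2, Flox 2, AdIGF1RKO 1. Flox 3 and AdIGF1RKO 3 are called the muscle-rich libraries, and the differences without them are given for the small heat shock proteins, for the inducible Hsp70 genes and, for all members, in the plot of group differences.

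The promoters of the members are shown first, since the heat shock element is the sequence that ties many of them to Hsf1. RefSeq promoter windows, from 250 bases before to 50 after a start on build GRCm38.p6, existed for 27 of the 34 members. That build is older than the GRCm39 of the deposited table, and the coordinates belong to the RefSeq windows alone. A pair of facing repeats, GAANNTTC or TTCNNGAA, was found in 16 of the 27 (59.3%), against 1445 of 10165 tested genes with a window (14.2%) and 4946 of all 32851 windows (15.1%). Each of these motifs is its own reverse complement, so a single search covers both strands. Runs with a further repeat, GAANNTTCNNGAA or TTCNNGAANNTTC, contain the shorter motif and were found in 5 of the 27 (18.5%), namely Hsph1, Dnajb6, Chordc1, Hspd1 and Hspe1, against 0.571% of the tested genes and 0.603% of windows. A gene was counted if any of its windows held the motif. Among the small heat shock proteins Hspb1, Hspb6 and Hspb8 held the pair and Hspb7 did not, and none held the longer run. Hspb6 held it in the window chr7:30553051-30553350 and not in chr7:30552290-30552589. Cryab had no window. A match describes letters in a window and no binding was measured.

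The bases upstream of Hspb1, a small heat shock protein, and of Hspa1a, the classic stress-inducible Hsp70, are printed as examples of the element in each of the compared sets. They run 5′ to 3′ with the paired repeats in capitals, which start 117 and 97 bases before the start of Hspb1 and 104 bases before that of Hspa1a.
Hspb1, chr5:135887669-135887918, plus strand: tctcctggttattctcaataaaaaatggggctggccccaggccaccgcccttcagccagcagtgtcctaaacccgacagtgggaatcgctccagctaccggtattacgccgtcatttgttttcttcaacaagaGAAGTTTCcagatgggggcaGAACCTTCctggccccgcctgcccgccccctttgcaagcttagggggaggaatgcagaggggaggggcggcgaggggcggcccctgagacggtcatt
Hspa1a, chr17:34972157-34972406, minus strand: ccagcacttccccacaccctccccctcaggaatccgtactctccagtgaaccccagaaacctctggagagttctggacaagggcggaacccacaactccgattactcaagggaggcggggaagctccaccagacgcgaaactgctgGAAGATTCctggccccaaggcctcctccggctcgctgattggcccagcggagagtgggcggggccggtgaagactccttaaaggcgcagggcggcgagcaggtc

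Shorter stretches of 30 bases show how the element differs among members. The runs marked in those of Hspb8 and Hsph1 lie just after the start. Hsph1 also has a pair, TTCTCGAA, 33 or 54 bases before the start, depending on the window. The small heat shock proteins Hspb6 and Hspb8 have the same 8 letters as the first run of Hspb1. So do Cct2 and Bag3 among the other chaperones. Chordc1, a cochaperone of Hsp90, has the longest run, of 23 bases. Hspe1 has a run of 18 bases that also lies upstream of an Hspd1 start on the opposite strand, in the window chr1:55087883-55088182. The Hspd1 window chr1:55088194-55088493 held no run. Both genes of the mitochondrial chaperonin start from a shared region. Hspa1b has the same stretch around its repeat as Hspa1a, and 296 of the 300 bases of the 2 windows are identical.
Hspb6, chr7:30553170-30553199, plus strand: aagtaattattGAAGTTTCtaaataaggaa
Hspb8, chr5:116422844-116422873, minus strand: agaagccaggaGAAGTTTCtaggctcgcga
Chordc1, chr9:18292260-18292289, plus strand: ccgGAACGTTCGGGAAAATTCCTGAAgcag
Hspe1, chr1:55088053-55088082, plus strand: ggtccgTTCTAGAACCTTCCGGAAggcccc
Dnajb6, chr5:29735844-29735873, plus strand: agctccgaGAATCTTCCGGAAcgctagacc
Hsph1, chr5:149636279-149636308, minus strand: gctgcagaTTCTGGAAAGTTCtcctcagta

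No member differed between AdIGF1RKO and Flox by the test across all genes. The lowest adjusted p of the 34 was 0.998 (limma, Benjamini-Hochberg over 12993 genes), and 0 of the 12993 genes were called, 0% of those tested. At an unadjusted p under 0.05 stood 0 of 34 members, against 2.96% of tested genes, of which 1.13% were lower and 1.83% higher in AdIGF1RKO. The same count was 0 by edgeR and 0 by DESeq2, and neither tool called a member. Groups that did not overlap were seen for 0 members, against 3.86% of tested genes with all AdIGF1RKO libraries lower and 4.41% with all higher. These p-values do not show that the groups are alike, and the 95% intervals given below show which sizes of difference they allow.

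The sign of the differences was mostly negative. In 29 of 34 members the log2 difference of AdIGF1RKO minus Flox was below 0, against 55.2% of tested genes. The median log2 difference was -0.38 over the small heat shock proteins and -0.10 over the other chaperones, with -0.02 over all tested genes. With all libraries scaled to equal sums 12 of 34 were negative, against 27.7% of tested genes, and with the values as deposited 34 of 34, against 85.2%. The negative sign also rested on a single library. Without Flox 3, 14 of 34 members were negative against 49.5% of tested genes, and the medians became 0.22 for the small heat shock proteins and 0.03 for the others. Without both muscle-rich libraries 11 of 34 were negative, against 50.8%, and the medians were -0.08 and 0.05.

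**Figure D1:**
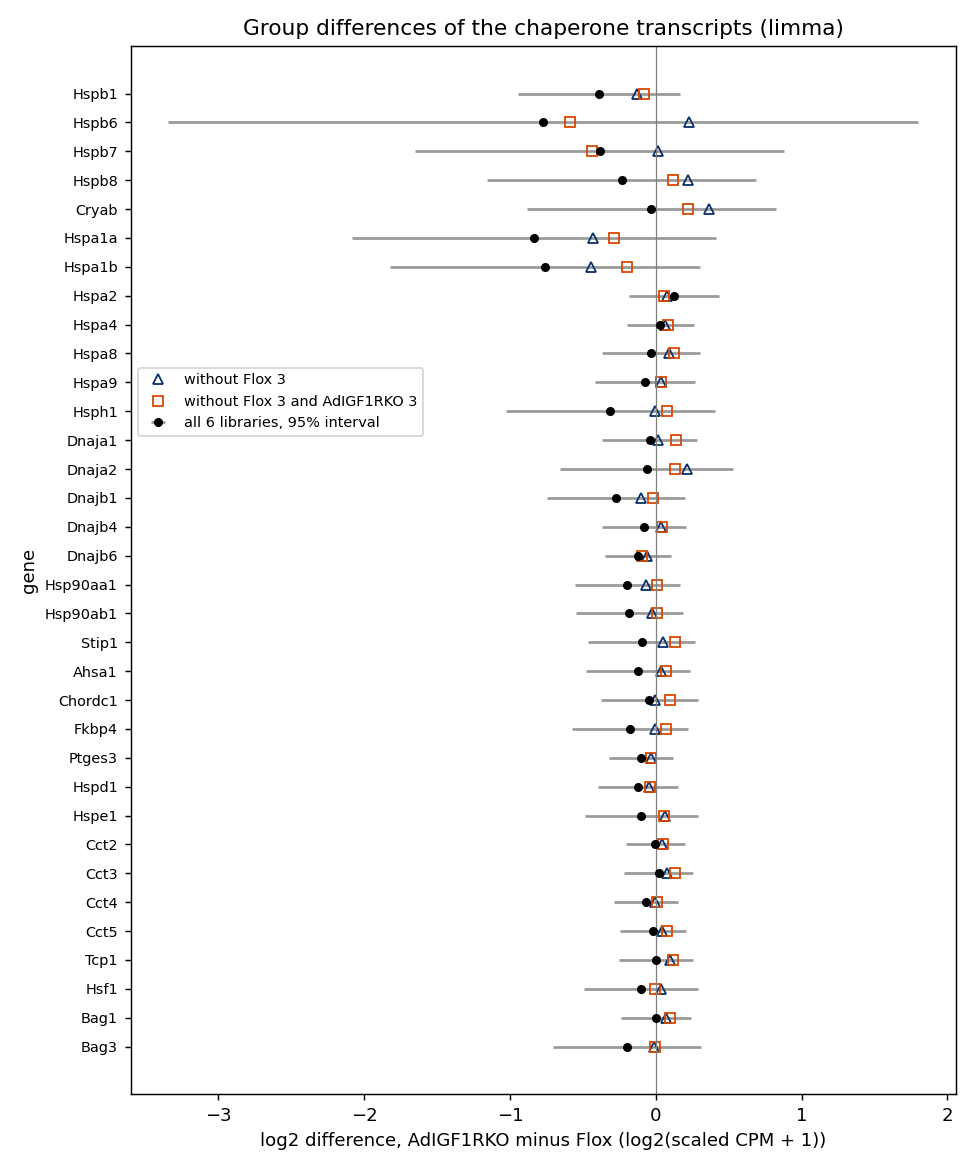
Log2 difference of AdIGF1RKO minus Flox for each of the 34 members with all 6 libraries and without the muscle-rich libraries. The horizontal axis is the difference in log2(scaled CPM + 1). Filled points with 95% intervals use all 6 libraries, triangles leave out Flox 3 and open squares leave out Flox 3 and AdIGF1RKO 3. With all libraries 29 of the 34 lie below 0, and without both muscle-rich libraries 11 do.

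Flox 3 was the highest of the 6 libraries in 31 of 34 members, which included all 5 small heat shock proteins and 26 of the 29 others. The exceptions were Hspa2, Hspa4 and Chordc1. Of all tested genes 30.8% had Flox 3 highest. This count moved with the scaling. When all libraries were scaled to equal sums it was 9 of 34, again with all 5 small heat shock proteins but with 4 of the 29 others, against 11.1% of tested genes. With the values as deposited it was 33 of 34, against 55.4%.

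Relative to its mean over the 6 libraries, the median small heat shock protein deviated by 0.99 on the log2 scale in Flox 3 and by 0.28 in AdIGF1RKO 3. In the other libraries the median lay between -0.45 and -0.16. For the other chaperones the median deviation was 0.27 in Flox 3 and -0.08 in AdIGF1RKO 3. With equal sums the median deviation in Flox 3 was 0.70 for the small heat shock proteins and -0.056 for the other chaperones. The median over all tested genes in Flox 3 was then -0.30, against -0.0037 with median-ratio factors and 0.21 with the values as deposited. With the values as deposited the other chaperones stood at 0.50, so they lay above the median of all tested genes under each scaling. Hspb1 is the exception among the small heat shock proteins, with its lowest level in AdIGF1RKO 3. The summed muscle markers were highest in the same pair of libraries. Fits without these libraries and with the markers as a covariate, called a muscle term, are given for each small heat shock protein.

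**Figure D2:**
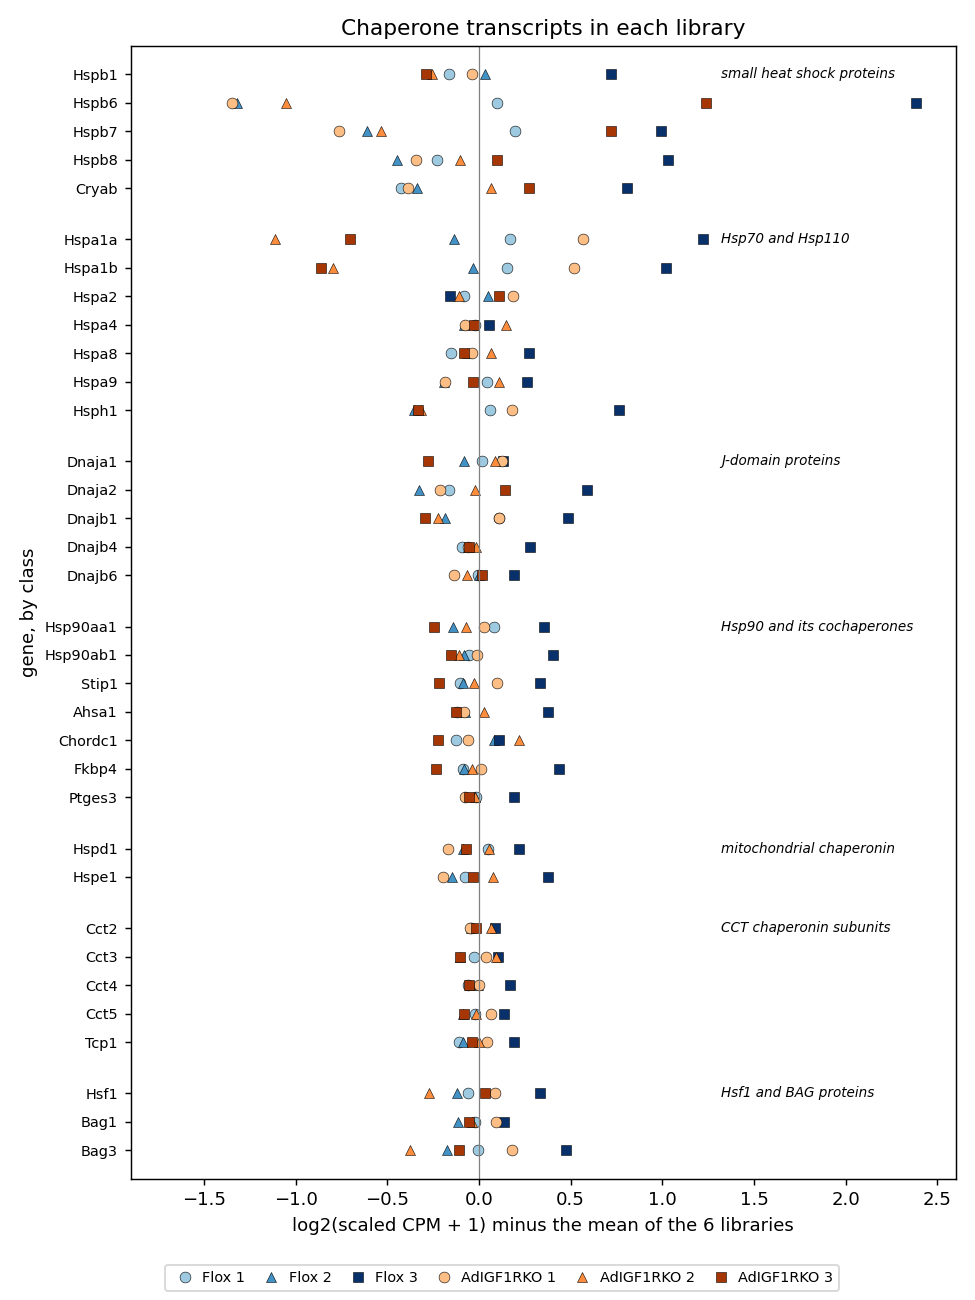
Each of the 34 transcripts in each library, as log2(scaled CPM + 1) minus the mean of the 6 libraries, by class. Blue points are Flox and orange points AdIGF1RKO, and squares mark the muscle-rich libraries of each group. Flox 3 is the rightmost point in 31 rows, and AdIGF1RKO 3 comes next to it in 4 of the 5 small heat shock proteins and in 2 of the 29 other rows.

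Hspb6, also called Hsp20, is a small heat shock protein of heart, skeletal and smooth muscle, and it varied most of the 34. It was read at 51.9, 18.8 and 257 scaled CPM in Flox 1 to 3 and at 18.4, 22.9 and 116 in AdIGF1RKO 1 to 3. The muscle-rich library was the highest in each group, and the groups overlapped. The means were 109 ± 129 (SD, n = 3) and 52.4 ± 55.0, with a log2 difference of -0.77 (SE 1.07, 95% interval -3.34 to 1.80, limma adjusted p = 0.998). Without Flox 3 the difference turned to 0.23, without both muscle-rich libraries it was -0.59, and with a muscle term in the model it was -0.08.

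Hspb7, the cardiovascular small heat shock protein, was the least abundant of the 5. Its levels were 4.08, 1.91 and 7.83 scaled CPM in Flox and 1.62, 2.06 and 6.32 in AdIGF1RKO, from as few as 125 reads in a library. Its 6 libraries and those of Hspb6 stood in exactly the order of the muscle markers, as did 2.38% of tested genes, and none of the other 32 members did. The log2 difference of Hspb7 was -0.38 (SE 0.53) with all libraries, 0.02 without Flox 3 and -0.44 without both muscle-rich libraries. With a muscle term it was -0.05.

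Hspb8 works with the cochaperone Bag3 in clearing damaged proteins by selective autophagy. It was read at 135, 116 and 324 scaled CPM in Flox and at 124, 147 and 170 in AdIGF1RKO. The muscle-rich library was again the highest of each group. Its log2 difference was -0.23 (SE 0.38), 0.22 without Flox 3, 0.12 without both muscle-rich libraries and -0.02 with a muscle term.

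Cryab, alpha-B-crystallin, is a lens protein that is also a main small heat shock protein of muscle. It was read at 293, 311 and 689 scaled CPM in Flox and at 301, 412 and 477 in AdIGF1RKO. The log2 difference was -0.03 (SE 0.36) with all libraries. It turned positive without Flox 3, at 0.37, without both muscle-rich libraries, at 0.22, and with a muscle term, at 0.17. None of these passed the test.

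Hspb1, or Hsp27, binds actin filaments as well as unfolding proteins and is found in many tissues. It was read at 221, 253 and 409 scaled CPM in Flox and at 241, 207 and 203 in AdIGF1RKO. Here AdIGF1RKO 3 was the lowest library although it is muscle-rich, so Hspb1 was the small heat shock protein that did not have both muscle-rich libraries on top. The log2 difference was -0.39 (SE 0.23, 95% interval -0.95 to 0.17, limma adjusted p = 0.998). It was -0.13 without Flox 3, -0.08 without both muscle-rich libraries and -0.33 with a muscle term. Without Flox 1, the lowest of its group, the difference was -0.57 at an unadjusted limma p of 0.0492 and an adjusted p of 0.959. In that fit 306 of the 12993 genes had an unadjusted p under 0.05. With all libraries the unadjusted limma p of Hspb1 was 0.139.

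Flox 3 and AdIGF1RKO 3 were the highest pair of libraries in 4 of the 5 small heat shock proteins and in 2 of the 29 other chaperones, against 16.8% of tested genes. The 2 others were Dnaja2 and Dnajb6, J-domain partners of Hsp70. The highest library exceeded the lowest by 2.02 to 13.95 times in the small heat shock proteins, with a median of 2.80. In the other chaperones this ratio ran from 1.10 to 5.29 with a median of 1.37, beside a median of 1.45 over all tested genes. In whole tissue, fewer cells of a type and less RNA per cell cannot be told apart.

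**Figure D3:**
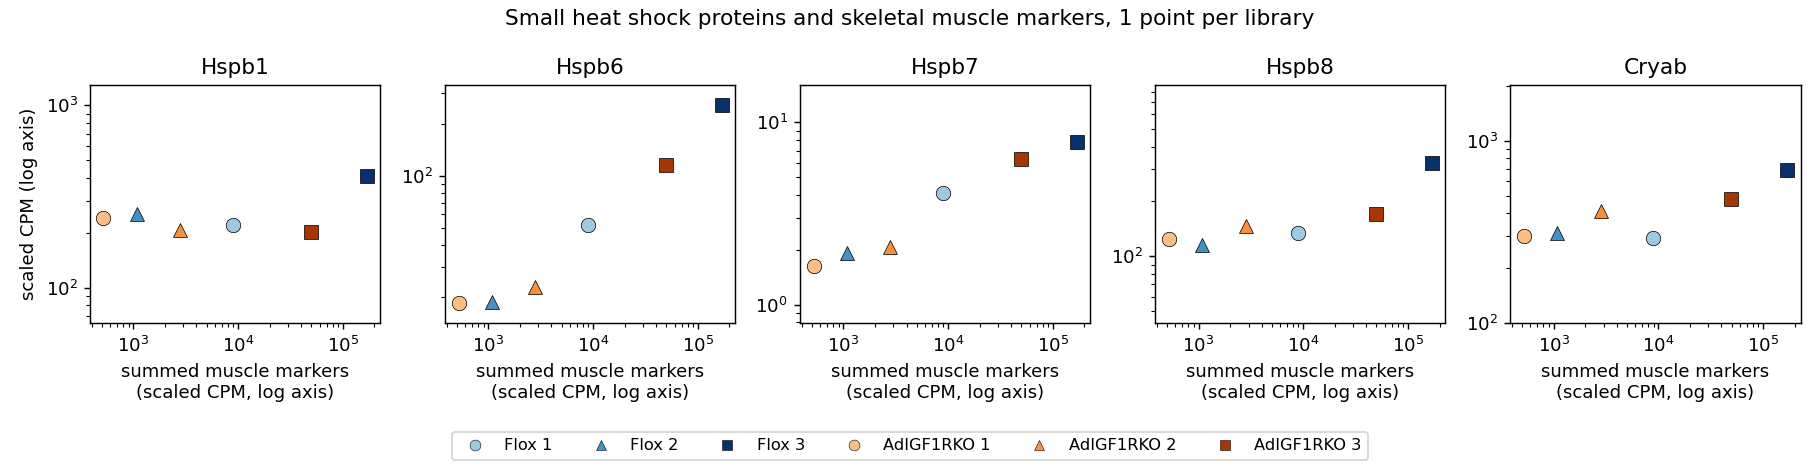
The 5 small heat shock proteins in each library, in scaled CPM, against the summed skeletal muscle markers of that library, both on logarithmic axes whose limits differ between panels. Points are libraries, coloured by group. Hspb6 and Hspb7 climb in step with the markers, and Hspb1 does not in AdIGF1RKO 3.

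Among the Hsp70 genes, the stress-inducible pair Hspa1a and Hspa1b showed another pattern. Hspa1a was read at 43.6, 35.0 and 91.6 scaled CPM in Flox and at 57.7, 17.3 and 23.3 in AdIGF1RKO. Hspa1b was read at 62.0, 54.3 and 114 in Flox and at 80.0, 31.6 and 30.1 in AdIGF1RKO. In both, Flox 3 was highest and AdIGF1RKO 1, the library with least muscle RNA, came next, while AdIGF1RKO 2 and 3 were the lowest of all. AdIGF1RKO 1 was 3.33 times AdIGF1RKO 2 for Hspa1a and 2.53 times for Hspa1b, so libraries of the same genotype differed more than the group means did.

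The log2 difference was -0.84 (SE 0.52, 95% interval -2.08 to 0.41) for Hspa1a and -0.76 (SE 0.44, 95% interval -1.82 to 0.30) for Hspa1b, each with a limma adjusted p of 0.998. Together with that of Hspb6 these were the lowest 3 differences of the 34. Without Flox 3 they were -0.43 and -0.44, and without both muscle-rich libraries -0.29 and -0.20. Without AdIGF1RKO 1, the highest of its group for both, they were -1.33 and -1.21. The unadjusted limma p was then 0.0255 and 0.0133 and the adjusted p 0.9998. In that fit 475 of the 12993 genes had an unadjusted p under 0.05. With all libraries the unadjusted limma p was 0.155 and 0.133, and without Flox 3 it was 0.402 and 0.339. The coding sequences of these genes are 99.6% identical, with 8 mismatches and 3 gap bases, so the division of reads between them is uncertain. Their sum was 106, 89.3 and 205 scaled CPM in Flox and 138, 48.9 and 53.4 in AdIGF1RKO, in the same order of libraries as Hspa1a.

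Hsph1, the Hsp110 exchange factor of Hsp70, was read at 134, 101 and 220 scaled CPM in Flox and at 146, 103 and 102 in AdIGF1RKO. Bag3, the Hsp70 exchange factor that pairs with Hspb8, was read at 53.8, 47.8 and 75.5 in Flox and at 61.4, 41.4 and 50.1 in AdIGF1RKO. Both shared with the inducible Hsp70 genes the order of Flox 3 first and AdIGF1RKO 1 next. Their log2 differences were -0.31 (SE 0.30) and -0.20 (SE 0.21) with all libraries and -0.01 for either without Flox 3.

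Dnajb1, or Hsp40, is the heat-inducible J-domain partner of Hsp70. It was read at 42.7, 34.6 and 55.8 scaled CPM in Flox and at 42.6, 33.6 and 32.0 in AdIGF1RKO. Its log2 difference was -0.28 (SE 0.20) with all libraries and -0.10 without Flox 3. Hsf1, the factor that drives the inducible genes and whose activity is not read from its transcript, was at 22.8, 21.8 and 30.2 in Flox and at 25.4, 19.5 and 24.3 in AdIGF1RKO. It varied less than the inducible Hsp70 genes, with a log2 difference of -0.10 (SE 0.16). Immediate early genes, which rise when tissue is handled or stressed, summed to 200 to 280 scaled CPM in Flox and 149 to 260 in AdIGF1RKO. Their lowest sum was in AdIGF1RKO 3, which was also the lowest library of Hspa1b. Hspa1a and the sum of Hspa1a and Hspa1b were instead lowest in AdIGF1RKO 2, where the immediate early genes summed to 260. The highest sum of the immediate early genes was in Flox 2, whereas both inducible Hsp70 genes were highest in Flox 3. A part of handling or stress in these levels was not tested.

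**Figure D4:**
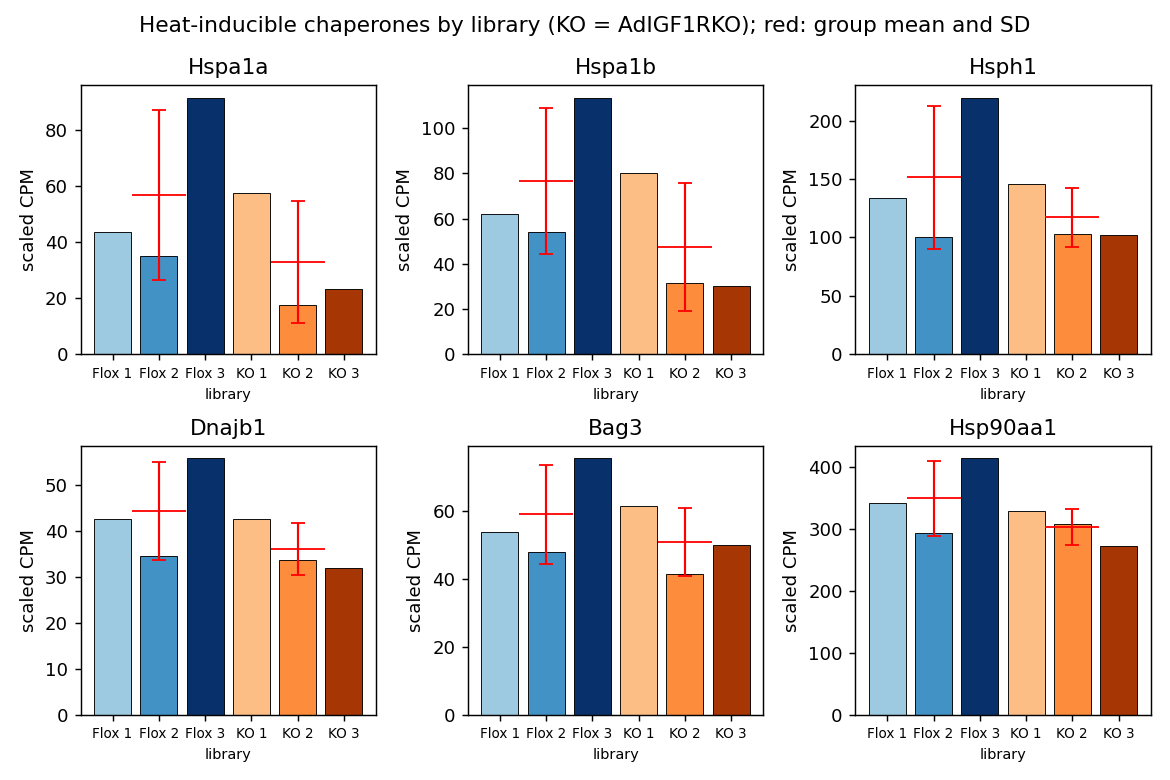
The 6 heat-inducible chaperones Hspa1a, Hspa1b, Hsph1, Dnajb1, Bag3 and Hsp90aa1 in each library, as bars of scaled CPM from 0, with the group mean and SD in red and AdIGF1RKO written as KO. Flox 3 is highest in each, and in Hspa1a, Hspa1b, Hsph1 and Bag3 the next is AdIGF1RKO 1.

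Hspa8 and Hsp90ab1, both constitutive, had the highest levels per length of the 34. Per kilobase of the longest annotated coding transcript, the Flox means in scaled CPM were 745 for Hspa8, the constitutive Hsp70, 477 for Hsp90ab1, 386 for Cryab, 375 for Hspe1 and 316 for Hspb1. Hspa8, which strips clathrin coats besides folding proteins, was read at 1571, 1669 and 2111 scaled CPM in Flox and at 1703, 1832 and 1649 in AdIGF1RKO. Its log2 difference was -0.03 (SE 0.14, 95% interval -0.37 to 0.30), which turned to 0.09 without Flox 3. Hspa8, Hsp90ab1 and Hspe1 have processed copies in the genome, and how reads were shared with those is not stated in the labels used here.

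Hsp90aa1, the inducible Hsp90, was read at 342, 293 and 414 scaled CPM in Flox and at 330, 308 and 273 in AdIGF1RKO. Hsp90ab1, the constitutive form, was read at 1075, 1053 and 1475 in Flox and at 1107, 1032 and 1003 in AdIGF1RKO. Only Flox 3 stood apart in either gene. The log2 differences were -0.20 (SE 0.15) and -0.18 (SE 0.15), and without both muscle-rich libraries they were 0.0083 and 0.0075. The other 5 members of the class, the cochaperones Stip1, Ahsa1, Chordc1, Fkbp4 and Ptges3, had negative differences too, and the median of the 7 was -0.12.

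Hspd1 and Hspe1, the Hsp60 and Hsp10 of mitochondria, have the shared element printed above. Hspd1 was read at 342, 311 and 384 scaled CPM in Flox and at 294, 343 and 314 in AdIGF1RKO. Hspe1 was read at 262, 250 and 359 in Flox and at 241, 291 and 270 in AdIGF1RKO. In both genes AdIGF1RKO 2 was the highest of its group and AdIGF1RKO 1 the lowest, whereas AdIGF1RKO 1 was the highest of its group in Hspa1a and Hspa1b. The log2 differences were -0.12 (SE 0.11) and -0.10 (SE 0.16).

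CCT is the cytosolic chaperonin that folds actin and tubulin, and its 5 subunits among the members varied least of the classes. Their highest library exceeded the lowest by 1.10 to 1.23 times, and their median log2 difference was -0.00. Cct4, with the smallest unadjusted p of the class at 0.474 by limma, was read at 176, 183 and 206 scaled CPM in Flox and at 183, 177 and 177 in AdIGF1RKO. Its 95% interval of -0.29 to 0.15 bounds a group difference more tightly than for any small heat shock protein.

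Beside the 34 members, 45 further chaperone genes were in the table and 44 passed the filter, with Hspb9 left out. Of these 44, 30 had a negative log2 difference, against 55.2% of tested genes, and the median was -0.09. With equal sums 17 were negative, against 27.7% of tested genes. Without Flox 3 the count was 20, against 49.5%, and without both muscle-rich libraries it was 21, against 50.8%. The medians were then 0.035, 0.012 and 0.0097. None of the 44 passed the adjusted test. At an unadjusted limma p under 0.05 stood 4 of the 44, against 2.96% of tested genes. With equal sums 0 of the 44 did, and with the values as deposited 1. All AdIGF1RKO libraries were below all Flox libraries in 4 and above them in 2, against 3.86% and 4.41% of tested genes. The 4 with the smallest unadjusted p by limma were Bag6, Dnajb2, Dnajc7 and Hspa12a, from 0.0226 to 0.0491. Bag6, which guards membrane proteins on their way to the endoplasmic reticulum, was read at 113, 118 and 117 scaled CPM in Flox and at 101, 98.0 and 98.2 in AdIGF1RKO. These groups did not overlap, and the log2 difference was -0.22. Dnajb2, a J-domain protein that sorts clients for degradation, was read at 64.8, 65.2 and 81.4 in Flox and at 60.9, 52.1 and 57.3 in AdIGF1RKO. Dnajc7, which binds both Hsp70 and Hsp90, was read at 206, 199 and 212 in Flox and at 172, 167 and 192 in AdIGF1RKO. All AdIGF1RKO libraries lay below all Flox libraries in these genes too. Hspa12a, a distant relative of Hsp70, was the one of the 4 with higher levels in AdIGF1RKO, at 58.6, 62.4 and 66.7 against 52.8, 56.6 and 51.2 in Flox.

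The further small heat shock proteins of muscle also had Flox 3 and AdIGF1RKO 3 as their highest pair. Hspb3 was read at 1.31, 0.741 and 26.5 scaled CPM in Flox and at 0.311, 0.353 and 7.36 in AdIGF1RKO. Hspb2, its partner in muscle, was read at 17.4, 24.6 and 58.3 in Flox and at 22.4, 19.3 and 35.2 in AdIGF1RKO. These 2 were picked after their values were seen. In all, 14 of the 44 had Flox 3 and AdIGF1RKO 3 as their highest pair, against 16.8% of tested genes.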

How the data were processed

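RNA was measured in 6 libraries of inguinal white adipose tissue, 3 per group. The authors deposited a single table of 14861 genes whose name calls the values FPKM. All entries are whole numbers. In each library they all lay within the rounding error of 0.5 deposited units of a whole number of reads times 1000000000 over a divisor for that library. A single read was worth 12.2 to 25.5 deposited units, and the tolerance covers 3.92% to 8.18% of that spacing. The deposited signal is thus a scaled read count not divided by gene length. The build is GRCm39 per the submitters' processing notes, and the aligner, counter and annotation used were not given in the sources used here. No gene of the table was at 0 in any library.

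Median-ratio size factors, from 0.731 to 1.17, were applied to the recovered reads because the divisors disagreed with the read totals. Genes with a mean of at least 1 scaled CPM were kept, which left out 1868. The groups were compared with limma (version 3.58.1, in R version 4.3.3), fitted to log2(scaled CPM + 1) with an intensity trend, two-sided, with Benjamini-Hochberg adjustment at 0.05. Log2 differences on this scale understate changes of low genes. A permutation test of 3 against 3 cannot go below a two-sided p of 0.1. The fit was tested on simulated data. Alternatives were the values as deposited, equal sums, a pseudocount of 0.5, no filter or a minimum of 5, a replicate block, a muscle covariate, leaving out libraries, edgeR (version 4.0.16) and DESeq2 (version 1.42.0) on the recovered reads, recovered whole for 100% of the values by that measure. edgeR called 0 genes and DESeq2 23.

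Same-numbered libraries deviated together, with correlations of 0.347, 0.349 and 0.834, but no label ties a number to a litter or day. The main fit was not paired, and the replicate block was used only as an alternative. Flox 2 correlated more with AdIGF1RKO 1, at 0.700. The members and gene lists were chosen with earlier results of these data known. Values per library are printed for the small heat shock proteins, Hsf1, Bag3 and the main inducible and constitutive chaperones. In every other class the rule prints the member with the smallest unadjusted p, and of the further chaperones the 4 smallest. Coding sequences of Hspa1a and Hspa1b and transcript lengths came from the GENCODE annotation of GRCm38. Marker lists of other cell types summed as follows over the 6 libraries, in scaled CPM. Smooth muscle and pericyte markers ran from 613 to 802, macrophage markers from 1261 to 2717, endothelial from 403 to 529 and lymphocyte from 327 to 587. Epithelial markers ran from 1.02 to 5.61, and brown and beige adipocyte markers from 335 to 1556, with the highest sum in Flox 3. Of that sum Cox8b gave 1475. Ppargc1a was highest in Flox 3 as well, at 5.06, whereas Cidea and Dio2 were highest in AdIGF1RKO 2, at 107 and 0.368. Ucp1 and Elovl3 were not in the table.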

Additional observations from a re-analysis of the deposited data

How the results depend on the processing

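Over 16 alternatives and 17 members, 247 of 271 recomputed differences kept their direction and their side of the threshold and 24 turned their sign. The changed filters and the replicate block leave each log2 difference as it is, so their pairs could not turn. No member was near the threshold in the main fit. The count is thus no measure of how stable the differences are. No member was called under any alternative. The count of called genes was 0 except for 23 with DESeq2, and ranged from 0 to 1 with single libraries left out. The replicate block left every log2 difference as it was and called 0 genes, but 582 genes in place of 385 then had an unadjusted p under 0.05, none of them a member. The scalings shifted the median of all genes, from -0.02 to -0.17 with the values as deposited and to 0.09 with equal sums. Relative to that median the small heat shock proteins lay at -0.36, -0.34 and -0.36 and the other chaperones at -0.08, -0.09 and -0.07.

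The median of the other chaperones was -0.26 as deposited, 0.027 with equal sums and 0.053 without both muscle-rich libraries. Members below 0 numbered 12 with equal sums, where 27.7% of tested genes were below 0, and 11 without both. With equal sums the difference was 0.093 for Cryab, 0.016 for Hsf1, 0.088 for Hspa8, 0.00055 for Hspd1, 0.022 for Hspe1 and 0.054 for Cct4. Without both muscle-rich libraries it was 0.12 for Hspb8, 0.22 for Cryab, 0.13 for Hspa8, 0.0083 for Hsp90aa1, 0.0075 for Hsp90ab1, 0.079 for Hsph1, 0.053 for Hspe1 and 0.0066 for Cct4. With the muscle covariate Cryab was at 0.17. Leaving out single libraries moved the median of the small heat shock proteins between -0.52 and 0.22, that of the others between -0.16 and 0.035, and the members below 0 between 14 and 33. The same ranges were -1.63 to 0.23 for Hspb6, -0.84 to 0.016 for Hspb7, -0.52 to 0.22 for Hspb8, -0.25 to 0.37 for Cryab, -0.19 to 0.036 for Hsf1, -0.12 to 0.092 for Hspa8 and -0.20 to 0.062 for Hspe1. Beyond the libraries left out, the cause was not tested. The fewest reads behind a member in a library were 125, for Hspb7, and the most were 131338, for Hspa8.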
